A study of Mus musculus with 8 samples.

Results

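Carbonic anhydrases, the enzymes that turn carbon dioxide and water into bicarbonate and protons, and the exchangers and channel that carry these ions across the gut surface were followed in mouse jejunal crypts. The 10 genes were taken by name from the 23951 gene symbols of the table: the carbonic anhydrase genes Car1, Car2, Car4, Car9, Car12 and Car13, the anion exchanger genes Slc26a3 and Slc26a6, the sodium proton exchanger gene Slc9a3, and the anion channel gene Cftr. Every mouse carried BRAF-V600E f/+, a conditional allele of an activated kinase of the MAPK pathway, together with Villin-CreER(T2), a recombinase that acts in the intestinal epithelium once tamoxifen is given. The group BRAF had 3 libraries and no further floxed gene, SMAD4KO_BRAF had 3 libraries and Smad4 f/f, and CDX2KO_BRAF had 2 libraries and Cdx2 f/f. Mice of all groups received tamoxifen on 4 days in a row, and 1 day after the last dose crypts were isolated with 3 mM EDTA and a 70 micron filter. No ages are given in the labels, and a group without the activated allele was not analysed here.

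The libraries are numbered from 0, as the columns of the table are. Values are FPKM, which scale the fragments of a gene by its length and by the size of the library, so levels can be set side by side between genes. The table holds no counts and the absolute depth is unknown. The relative depth read from the steps between low values ran from 0.717 to 1.46, with BRAF library 0 set to 1. That reading is rough, as the most common ratio held only 0.871% to 3.0% of the low genes of a library. Between 10924 and 11570 genes reached an FPKM of 1 in a library. Smad4 had a mean FPKM of 43.9 in BRAF and 8.93 in SMAD4KO_BRAF (log2 -2.19 ± 0.13, adjusted p = 0.00163). Cdx2 went against its label, with 155 and 121 FPKM in the libraries labelled CDX2KO_BRAF and 64.2 to 93.1 in the other 6 libraries. A value for a whole gene cannot show whether the floxed stretch of Cdx2 is lost, so every direction given for that group rests on its label. The epithelial list of 5 genes, among them Epcam and Cdh1, summed to 2408 to 4589 FPKM over the 8 libraries. A list of 4 Y-linked genes summed to 73.7 FPKM in BRAF library 0 and 76.9 in SMAD4KO_BRAF library 0. In the others, both labelled CDX2KO_BRAF libraries among them, it summed to at most 0.0637 FPKM. By these genes the labelled group is all female, and each of the other groups has 1 male library.

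Bicarbonate protects the surface of the small intestine from gastric acid, and its making and transport are divided among several proteins. Cytosolic carbonic anhydrases supply ions inside the cell, and membrane-bound members act at the cell surface. On villus cells the sodium proton exchanger NHE3 and the chloride bicarbonate exchangers DRA and PAT1 together take up sodium chloride, while CFTR in crypt cells lets chloride and bicarbonate out.

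The stretches of 250 bases before the listed transcription start are shown for 4 genes: Car4, Slc26a6 and Slc26a3 because their levels separated the groups most widely, and Car9 because it kept a high level in all of them. They were taken from RefSeq for GRCm38.p6, in which 7 of the 10 genes were found. All 4 are on the plus strand and read 5′ to 3′. The build differs from the mm9 of the FPKM table, and no value was read by coordinate. Capitals mark every match, on either strand, to a motif that was searched for. They lie at chr11:84957504-84957753 for Car4, chr9:108853793-108854042 for Slc26a6, chr12:31437969-31438218 for Slc26a3 and chr4:43506776-43507025 for Car9. The Slc26a3 window lies inside the RefSeq gene record, which begins further upstream than this listed start.
Car4: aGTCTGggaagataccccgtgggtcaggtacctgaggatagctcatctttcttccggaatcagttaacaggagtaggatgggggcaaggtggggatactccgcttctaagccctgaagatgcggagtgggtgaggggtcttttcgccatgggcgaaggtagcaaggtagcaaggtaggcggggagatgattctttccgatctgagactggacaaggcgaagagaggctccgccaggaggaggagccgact
Slc26a6: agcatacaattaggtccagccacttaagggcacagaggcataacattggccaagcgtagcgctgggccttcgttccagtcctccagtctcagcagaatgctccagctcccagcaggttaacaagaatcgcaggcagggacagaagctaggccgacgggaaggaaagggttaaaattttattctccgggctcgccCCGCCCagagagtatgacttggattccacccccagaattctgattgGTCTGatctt
Slc26a3: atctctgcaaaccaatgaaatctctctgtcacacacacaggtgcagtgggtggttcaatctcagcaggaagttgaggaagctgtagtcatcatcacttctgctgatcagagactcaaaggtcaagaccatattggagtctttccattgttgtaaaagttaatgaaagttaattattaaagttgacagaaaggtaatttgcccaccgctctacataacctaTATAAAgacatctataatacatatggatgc
Car9: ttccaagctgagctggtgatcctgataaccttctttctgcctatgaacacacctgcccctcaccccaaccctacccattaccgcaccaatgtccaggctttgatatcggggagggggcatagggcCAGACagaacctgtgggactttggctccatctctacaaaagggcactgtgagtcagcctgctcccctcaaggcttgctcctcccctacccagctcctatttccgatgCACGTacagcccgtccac

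These 4 windows differ in base composition. The share of G and C was 56.4% in Car4, 53.2% in Slc26a6, 38.8% in Slc26a3 and 56.4% in Car9, against a median of 52.4% over all RefSeq promoters. Slc26a3 had 1 CpG and Car4 had 11. The TATA box letters TATAAA occurred in 1 of the 7 promoters, 30 to 25 bases before the listed start of Slc26a3, and in 12.4% of 32851 promoters of the same length. The core letters bound by hypoxia-inducible factors, ACGTG, lay 18 to 14 bases before the start of Car9, on the minus strand, and were also present in Slc9a3. That is 2 of 7, against 16.6% of all promoters. The SMAD letters CAGAC were found in Car4, Slc26a6, Car9 and Car12 (4 of 7, against 42.2%). In Slc26a6 they stood 10 to 6 bases before the start, and in Car4 at the far end of the window. The GC box GGGCGG was found in 4 of 7, namely Cftr, Car12, Slc26a6 and Slc9a3, against 32.7% of all. The CDX letters TTTATNG were in 0 of 7 (9.81% of all promoters), and the HNF4 letters CAAAGTNCA in 0 of 7 (1.19%). No matches overlapped in the printed windows. A match is a description of letters and no evidence of binding, and a missing match concerns this window only.

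In BRAF the highest mean was that of Car4, which encodes the carbonic anhydrase anchored to the outer face of the brush border. Its FPKM was 104, 187 and 271 in BRAF libraries 0, 1 and 2, then 44.3, 6.51 and 122 in SMAD4KO_BRAF libraries 0, 1 and 2, and 0.129 and 1.10 in the libraries labelled CDX2KO_BRAF. Both labelled libraries lay below all others, while SMAD4KO_BRAF library 2 overlapped with BRAF. Car4 was also uneven within SMAD4KO_BRAF, where the highest library had 18.6 times the lowest.

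The remaining carbonic anhydrases behaved differently. Car9, a membrane enzyme known for its induction by low oxygen, had 154, 88.9 and 128 FPKM in BRAF, 131, 94.9 and 90.7 in SMAD4KO_BRAF, and 124 and 164 in the libraries labelled CDX2KO_BRAF. All 3 groups overlapped. RefSeq places Car9 across the gene Arhgef39, which had 12.1 to 28.1 FPKM, and the library kit does not mark strand, so part of the Car9 value is uncertain. Car12, the second membrane enzyme known from tumours, had 11.7, 12.8 and 13.6 FPKM in BRAF, 13.7, 25.2 and 17.6 in SMAD4KO_BRAF, and 15.0 and 9.88 in the labelled libraries. Every SMAD4KO_BRAF value of Car12 was above every BRAF value, by as little as 13.7 against 13.6.

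Of the cytosolic enzymes, Car13 was the steadiest. Its FPKM was 34.9, 32.3 and 34.0 in BRAF, 17.6, 22.2 and 23.7 in SMAD4KO_BRAF, and 21.2 and 16.0 in the labelled libraries. The 3 BRAF libraries of Car13 stood above the other 5, which overlapped. Car2, the most active cytosolic form, had 7.85, 4.61 and 3.08 FPKM in BRAF, 1.78, 1.91 and 2.33 in SMAD4KO_BRAF, and 5.04 and 49.2 in the labelled libraries. The last value stood far above the rest, and the other labelled library lay within the range of BRAF. Car1, a cytosolic enzyme best known from the colon and from red cells, was listed at 0 in all 8 libraries. The housekeeping gene Gapdh had no more than 1.62 FPKM in this table, so a listed 0 may be a failed estimate, and Car1 was not tested.

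Among the transporters, Slc26a3, which encodes DRA, had 87.3, 66.2 and 91.3 FPKM in BRAF, 97.8, 38.8 and 52.1 in SMAD4KO_BRAF, and 8.84 and 10.3 in the libraries labelled CDX2KO_BRAF. Slc26a6, which encodes PAT1, had 183, 88.8 and 156 FPKM in BRAF, 102, 48.5 and 50.8 in SMAD4KO_BRAF, and 17.2 and 13.5 in the labelled libraries. Both anion exchanger genes were lowest in the labelled libraries without overlap, and SMAD4KO_BRAF library 0 lay within the BRAF range for Slc26a6 and above it for Slc26a3. Slc9a3, which encodes NHE3, had 47.0, 7.97 and 52.6 FPKM in BRAF, 26.6, 12.3 and 15.4 in SMAD4KO_BRAF, and 15.5 and 8.02 in the labelled libraries. BRAF library 1 held the lowest value of Slc9a3 in the series, and its group spread 6.60-fold. Cftr had 55.8, 35.8 and 50.9 FPKM in BRAF, 52.6, 50.1 and 44.2 in SMAD4KO_BRAF, and 44.6 and 28.7 in the labelled libraries, with overlap between all groups.

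**Figure D1:**
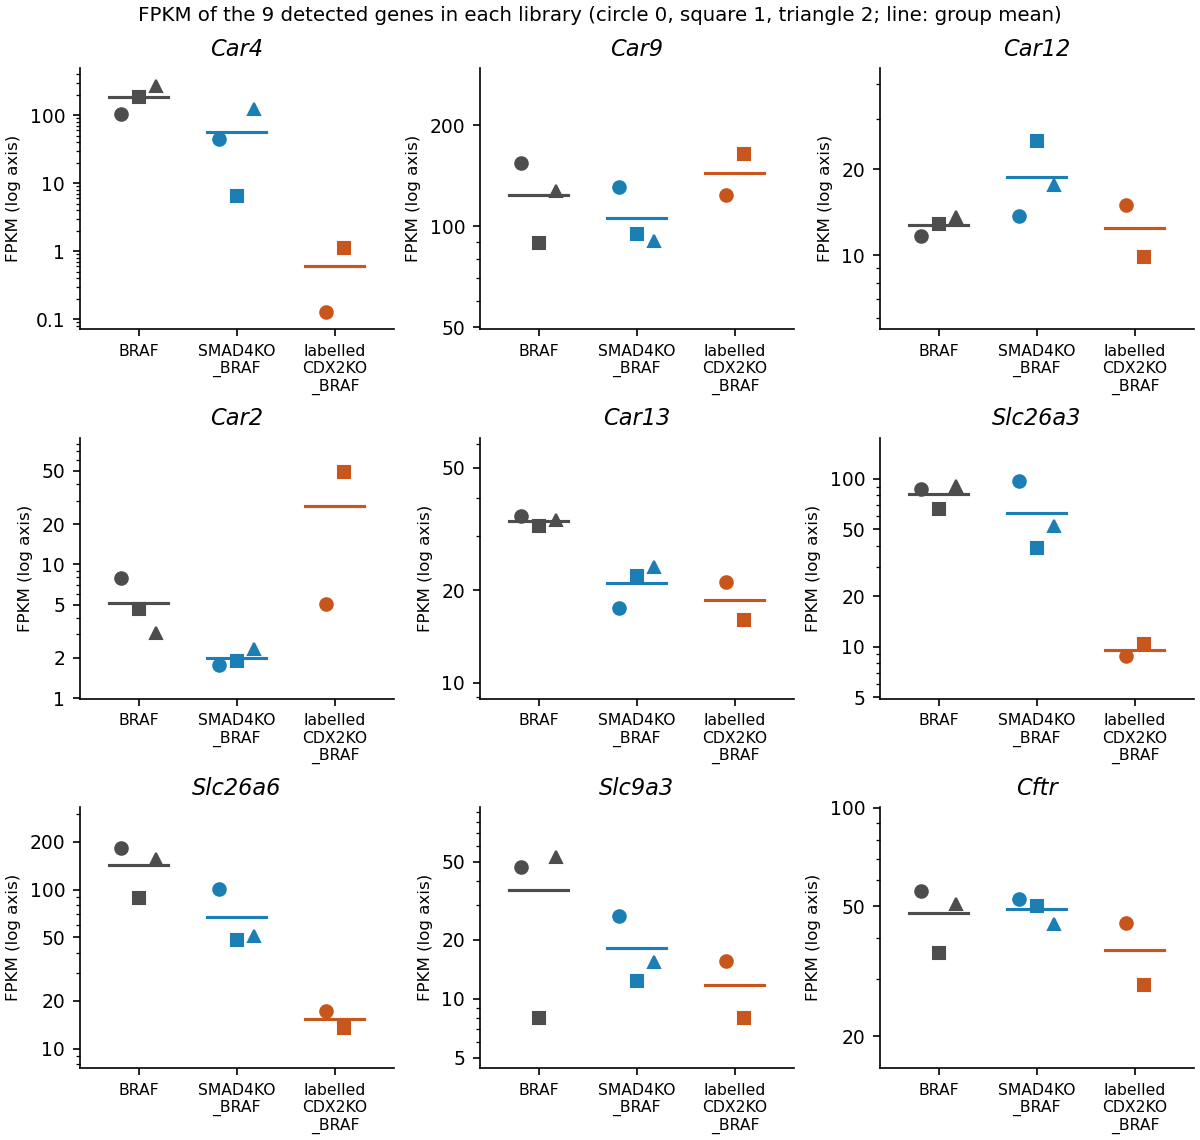
FPKM (log axis) of the 9 genes with values above 0, 1 point per library (circle 0, square 1, triangle 2) and the mean of each group as a line. Car4, Slc26a3 and Slc26a6 are lowest in both libraries labelled CDX2KO_BRAF, Car9 and Cftr overlap between all groups, and the single high point of Car2 is 49.2.

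The order of the genes by mean level changed between the groups. In BRAF it ran Car4, Slc26a6, Car9, Slc26a3, Cftr, Slc9a3, Car13, Car12 and Car2. Neighbours in that order had overlapping ranges except at 3 steps, from Slc26a3 to Cftr, from Car13 to Car12 and from Car12 to Car2. Among the 12084 genes tested, the BRAF means ranked from the 96.4th percentile for Car4 through the 90.4th for Slc26a3 to the 28.0th for Car2. In SMAD4KO_BRAF the order was Car9, Slc26a6, Slc26a3, Car4, Cftr, Car13, Car12, Slc9a3 and Car2, with gaps only below Cftr and below Slc9a3. In the libraries labelled CDX2KO_BRAF it was Car9, Cftr, Car2, Car13, Slc26a6, Car12, Slc9a3, Slc26a3 and Car4, with gaps only below Car9 and above Car4. Car4 thus stood at the top of the BRAF order and at the bottom of the labelled one.

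The libraries labelled CDX2KO_BRAF were compared with BRAF to ask what the floxed Cdx2 allele adds in crypts with the activated kinase. Car4, Slc26a3, Slc26a6 and Car13 fell. That is 4 called of 9, where 14.1% of all 12084 genes were called in either direction and 7.21% were called lower. None of the 9 rose. The median difference over the 9 genes was -0.84 on the log2 scale, against 0.02 over all genes tested. Differences are of log2(FPKM + 1) ± the standard error, which understates changes of genes at low FPKM, and p-values are from limma, adjusted over all genes tested. They reflect how far these libraries spread, and whether each library came from its own animal is not in the labels.

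Car4 fell from a mean of 187 ± 83.7 FPKM (SD, n = 3) to 0.616 ± 0.688 (n = 2), a ratio of means of 304-fold. The difference was log2 -6.83 ± 1.06 (95% interval -9.32 to -4.34, adjusted p = 0.00749). With 0.129 and 1.10 FPKM in the labelled libraries, Car4 met the filter for testing only through the other groups, where it is higher. The call rested on both labelled libraries, with an adjusted p of 0.0608 without library 0 and 0.0529 without library 1, while the difference itself was -6.38 and -7.28. A list of 10 enterocyte genes, among them the brush-border enzyme genes Sis and Alpi, was also lower in the labelled libraries than in BRAF. They summed to 14012 to 30090.4 FPKM in BRAF and 3688 to 8650.1 in the labelled libraries. Within the groups Car4 did not follow this sum. BRAF library 0 had the lowest Car4 of its group, 104 FPKM, and the highest sum. SMAD4KO_BRAF library 2 had the highest Car4 of its group, 122 FPKM, and the lowest sum, 6902 FPKM. Fabp1, Apoa1, Apoa4 and Fabp2 had the highest BRAF means in that sum, above Sis and Alpi. Of the 10, 6 fell, where 7.21% of all genes were called lower. In such bulk samples fewer enterocytes and less RNA per enterocyte cannot be told apart, and the part of either in the fall of Car4 was not tested.

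The anion exchangers fell by less than Car4 and more evenly. Slc26a3 went from 81.6 ± 13.5 FPKM (n = 3) to 9.58 ± 1.05 (n = 2), which is 8.52-fold (log2 -2.95 ± 0.36, adjusted p = 0.00301). Slc26a6 went from 143 ± 48.6 to 15.4 ± 2.63 FPKM, which is 9.26-fold (log2 -3.08 ± 0.40, adjusted p = 0.00407). Both passed under each of the alternatives run, including every omission of 1 library, with a highest adjusted p of 0.0327 for Slc26a3 and 0.0474 for Slc26a6. Within the labelled group these 2 genes spread less than Car4 or Car2 did.

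Car13 fell from 33.7 ± 1.32 to 18.6 ± 3.71 FPKM, a 1.81-fold change (log2 -0.84 ± 0.17, 95% interval -1.22 to -0.45, adjusted p = 0.0178). Its call ended without BRAF library 2 (adjusted p = 0.0557) and without labelled library 1 (0.129). The 4 genes that fell are those whose groups did not overlap, where 48.4% of all genes did not overlap and 22.7% lay lower without overlap.

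For Car2 the labelled libraries disagreed. The difference from BRAF was log2 1.57 ± 0.79 (95% interval -0.29 to 3.42, adjusted p = 0.242). Without labelled library 0 it was 3.10 (adjusted p = 0.0148), and without labelled library 1 it was 0.04 (0.964), so library 1 alone decided the value. Of 9 erythroid genes, whose cells are known for CA2 protein, 7 were in the table, and they summed to 0.473 and 4.85 FPKM in labelled libraries 0 and 1, 1.05 to 11.7 in BRAF and 2.96 to 8.57 in SMAD4KO_BRAF. The gastric list of 10 genes summed to 2396 and 8001 FPKM in labelled libraries 0 and 1 and to at most 10.1 in the other 6. Tff2, Gkn1, Gkn2 and Pgc made up nearly all of that sum, while Tff1 was listed at 0 in all libraries and the parietal cell pump genes Atp4a and Atp4b had at most 0.995 and 0.0720 FPKM. The gastric sum was thus high in both labelled libraries, and Car2 in library 1 only. The part of either list's cells in the Car2 value was not tested.

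Slc9a3, Cftr, Car9 and Car12 did not pass. Slc9a3 differed by log2 -1.22 ± 0.77 (95% interval -3.04 to 0.60, adjusted p = 0.343). Without BRAF library 1, the low library of its group, the difference was -2.06 and passed (adjusted p = 0.0283). That library also had the highest sum of 7 T cell genes, 595 FPKM, against 7.19 to 305 in the others, and it was the lowest of its group for Car9, Car13, Slc26a3, Slc26a6 and Cftr as well as Slc9a3. BRAF library 1 also had the lowest enterocyte sum of its group, 14012 FPKM against 16144 and 30090. Its crypt base sum was the highest of the group, 459 FPKM against 185 and 283. Its mesenchyme sum, 43.9 FPKM, was the highest of the series. The part of any of these cell types in these values was not tested. Cftr differed by -0.38 ± 0.24 (interval -0.94 to 0.19, adjusted p = 0.348), Car9 by 0.24 ± 0.27 (0.593) and Car12 by -0.05 ± 0.26 (0.91). A p above the threshold does not show that a gene was alike in both groups.

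**Figure D2:**
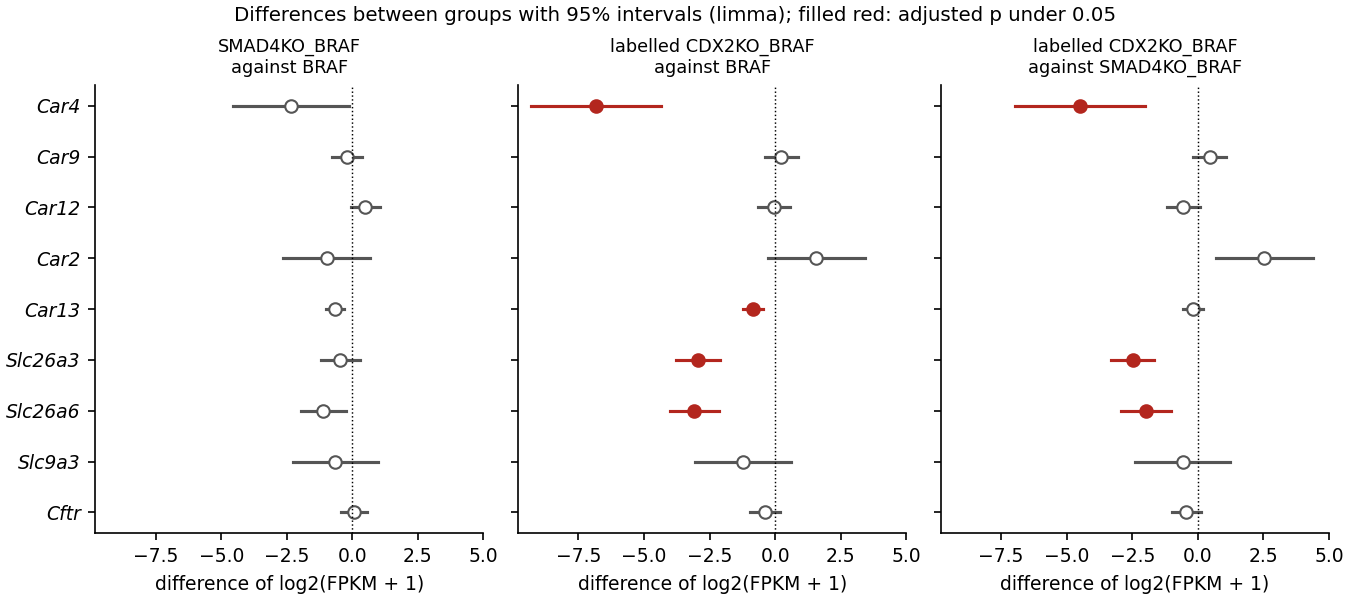
Differences of log2(FPKM + 1) between groups with limma's 95% intervals, for 9 genes in 3 comparisons, with filled red points where the adjusted p is under 0.05. Against BRAF the libraries labelled CDX2KO_BRAF show 4 filled points, all to the left of 0, and SMAD4KO_BRAF shows none.

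The comparison of SMAD4KO_BRAF with BRAF asks about Smad4, through which BMP and TGF-beta signals reach the nucleus, in the same setting. By limma's adjusted p, 0 of the 9 genes were called, where 0.0745% of all genes (9 of 12084) were. At an unadjusted p under 0.05 there were 3, namely Car13, Slc26a6 and Car4, against 15.1% of all genes. The difference was negative for 7 of the 9, Car9 only without quantile normalization, with a median of -0.65, against -0.01 over all genes.

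Car13 showed the narrowest interval of these 3, at log2 -0.66 ± 0.15 (95% interval -1.0 to -0.31, adjusted p = 0.179), with means of 33.7 and 21.2 FPKM. Slc26a6 differed by -1.10 ± 0.36 (interval -1.95 to -0.26, adjusted p = 0.276) and Car4 by -2.34 ± 0.95 (interval -4.56 to -0.11, adjusted p = 0.312). With weights that let uneven libraries count for less, Car13 (adjusted p = 0.042) and Slc26a6 (0.0373) passed. With those weights 8.85% of all genes were called, 1069 in place of 9. The enterocyte list had a median difference of -1.25 in this comparison and 0 of its 10 genes called, and it summed to 6902 to 20779 FPKM in SMAD4KO_BRAF. Its part in the lower values was not tested.

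The other 6 genes gave wide or small differences. Slc9a3 differed by -0.65 ± 0.69 (interval -2.27 to 0.98), Car2 by -0.97 ± 0.71, Slc26a3 by -0.46 ± 0.32 and Car9 by -0.21 ± 0.24, which became 0.03 under quantile normalization. Cftr was at 47.5 ± 10.4 FPKM in BRAF and 49.0 ± 4.30 in SMAD4KO_BRAF, a difference of 0.06 ± 0.21 (interval -0.44 to 0.57, adjusted p = 0.91). Car12 was the only other gene with a positive difference, 0.49 ± 0.23 (adjusted p = 0.363). Groups did not overlap for 3 of the 9, with Car2 and Car13 lower and Car12 higher, where 19.3% of all genes did not overlap.

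Set against SMAD4KO_BRAF, the libraries labelled CDX2KO_BRAF were lower for 3 of the 9 genes, where 11.6% of all genes were called and 5.01% were called lower. Slc26a3 fell 6.56-fold (log2 -2.49 ± 0.36, adjusted p = 0.00706), Slc26a6 fell 4.35-fold (-1.98 ± 0.40, 0.0227) and Car4 fell 93.3-fold by the ratio of means (-4.49 ± 1.06, 0.0373). This comparison tests the difference between both added genotypes directly. Without labelled library 0 or 1 the adjusted p was 0.0591 and 0.0601 for Slc26a3, 0.1 and 0.144 for Slc26a6, and 0.207 and 0.134 for Car4. The Car4 call also ended without BRAF library 1 (0.0528) or 2 (0.0606) and without SMAD4KO_BRAF library 0 (0.0871) or 2 (0.0664), when only these groups were fitted (0.0745), and with no filter on low values (0.0674).

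Car13, which fell against BRAF, differed from SMAD4KO_BRAF by -0.18 ± 0.17 (adjusted p = 0.511). Car2 differed by 2.54 ± 0.79 (adjusted p = 0.0806), and by 4.06 (0.00921) without labelled library 0 and 1.01 without labelled library 1. Car12 (-0.55 ± 0.26), Car9 (0.45 ± 0.27), Cftr (-0.44 ± 0.24) and Slc9a3 (-0.57 ± 0.77) did not pass either. Groups did not overlap for 4 of the 9, with Car4, Slc26a3 and Slc26a6 lower and Car2 higher, where 47.3% of all genes did not overlap. Both comparisons of the labelled libraries share them, so their values are given side by side and not as 2 tests of the same fall.

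The makeup of a pool of Car2, Car4, Car9, Car12 and Car13 differed between the groups. Their summed FPKM was 312, 326 and 450 in BRAF, 208, 151 and 256 in SMAD4KO_BRAF, and 165 and 240 in the labelled libraries. Car4 made up 33.3%, 57.4% and 60.3% of the pool in BRAF, 21.2%, 4.32% and 47.5% in SMAD4KO_BRAF, and 0.0784% and 0.459% in the labelled libraries. The membrane-anchored brush-border form was thus a main part of the pool in BRAF and under 1% of it in the labelled libraries. Car9 took 49.3%, 27.3% and 28.4% in BRAF, 62.9%, 63.0% and 35.4% in SMAD4KO_BRAF, and 74.9% and 68.3% in the labelled libraries. All 3 groups of its FPKM overlapped, while its share in both labelled libraries lay above that in the other 6. Car2 was 20.5% of the pool in labelled library 1 and between 0.685% and 3.05% in the other 7.

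**Figure D3:**
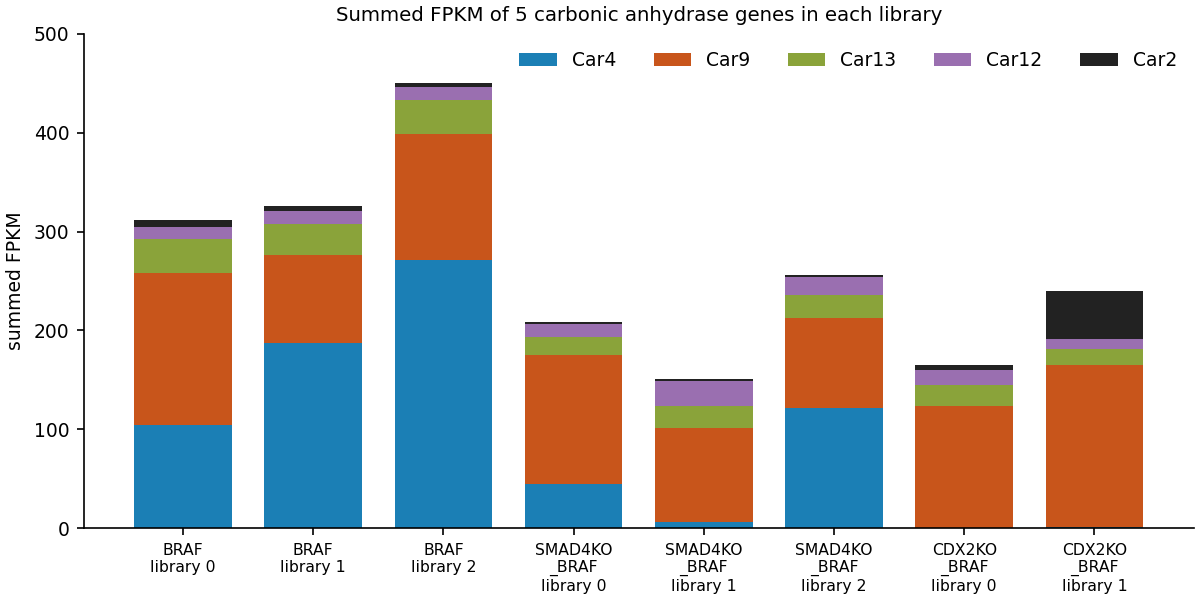
Summed FPKM of Car4, Car9, Car13, Car12 and Car2, stacked, with 1 bar per library. The Car4 segment is the tallest in BRAF libraries 1 and 2 and cannot be seen in the 2 libraries labelled CDX2KO_BRAF, where the Car9 segment is the tallest.

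Ratios within a library compare genes without the library's scale. Slc26a6 had 2.1, 1.34 and 1.70 times the level of Slc26a3 in BRAF, 1.04, 1.25 and 0.975 times in SMAD4KO_BRAF, and 1.95 and 1.31 times in the labelled libraries. All 3 SMAD4KO_BRAF ratios lay below those of the other 5 libraries, and the BRAF and labelled ratios overlapped. Cftr had 0.640, 0.541 and 0.557 times the level of Slc26a3 in BRAF, 0.539, 1.29 and 0.850 times in SMAD4KO_BRAF, and 5.04 and 2.78 times in the labelled libraries. The channel gene therefore passed the exchanger gene in both labelled libraries and in SMAD4KO_BRAF library 1.

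For Car13 and Slc26a3, which had the smallest adjusted p in the comparisons of SMAD4KO_BRAF and of the labelled libraries with BRAF, the most similar genes were looked up by Pearson's r of log2(FPKM + 1) over the 8 libraries. The search covered 8943 genes with a mean of at least 5 FPKM, and r describes libraries that share their groups. Among the genes nearest to Car13 were Dyrk1a (0.981), Lypla1 (0.976), Smim7 (0.969) and Dnajc13 (0.959). The 5 nearest to Slc26a3 were Mfsd6l (0.992), Txn1 (0.991), Pla2g12b (0.99), Lrrc19 (0.99) and Abhd11os (0.99), the last an antisense gene that these libraries cannot tell from its partner strand.

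The rest of the pathway was read from 7 lists of 76 genes, of which 51 were tested. Against BRAF, 9 rose and 15 fell in the libraries labelled CDX2KO_BRAF, 24 of 51 beside the 14.1% of all genes, of which 6.89% were called higher and 7.21% lower. The median over the 51 was -0.32. In SMAD4KO_BRAF against BRAF, 0 of the 51 were called by limma, where 0.0745% of all genes were. At an unadjusted p under 0.05 there were 16, against 15.1% of all genes. Leaving out labelled library 1 ended 17 of the 24 calls, labelled library 0 ended 14, BRAF libraries 0 and 2 ended 8 each, BRAF library 1 ended 5, SMAD4KO_BRAF library 2 ended 2 and SMAD4KO_BRAF library 1 ended 1. Car8, Pdzk1, Pdzd3 and Guca2b passed in every alternative in which they were tested, and 18 calls ended under at least 1. The remaining calls, those of Slc26a9 and Slc9a4, are counted among the 9 but support nothing. Both genes stayed under 1 FPKM in the other 6 libraries and met the filter only through the labelled libraries, where they are high, so they are given by their values. Car15, Slc4a5, Adora2b and Clca6, counted among the 15, met the filter only through the other groups, where they are higher. Clca6 had 5.80 and 0.764 FPKM in labelled libraries 0 and 1.

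Of 10 other carbonic anhydrase genes, 2 were tested and the others stayed at or under 0.462 FPKM. Car8, which encodes a carbonic anhydrase-related protein without catalytic activity, rose from 6.30, 6.12 and 6.98 FPKM in BRAF to 28.2 and 21.4 (log2 1.78 ± 0.14, adjusted p = 0.000735). Its 3 SMAD4KO_BRAF values, 9.30, 8.24 and 8.35, lay between. Car15, a membrane-anchored form, fell (log2 -0.80, adjusted p = 0.0337) from a level that was at most 2.13 FPKM.

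Among the other SLC26 transporters, Slc26a2 rose and Slc26a11 fell, where Slc26a3 and Slc26a6 had both fallen. Slc26a2, a sulfate transporter, had 66.6, 50.6 and 45.6 FPKM in BRAF, 30.5, 28.6 and 28.7 in SMAD4KO_BRAF, and 95.7 and 108 in the labelled libraries. No group overlapped with another. It rose against BRAF (log2 0.91, adjusted p = 0.0132) and against SMAD4KO_BRAF (1.76, 0.00149). The SMAD4KO_BRAF difference from BRAF was -0.85 ± 0.15 (0.148). That difference passed with library weights (0.0379) and with a term for sex (0.0433), under which 8.85% and 0.645% of all genes were called. Slc26a9, an anion transporter known from stomach and airway, had 0.436, 0.0576 and 0.144 FPKM in BRAF, 0.321, 0.984 and 0.0499 in SMAD4KO_BRAF, and 6.36 and 14.1 in the labelled libraries, beside the gastric list given above. The fall of Slc26a11 was -0.94 (0.0412).

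The SLC4 list had 2 genes fallen and 0 risen of 5 tested, where 7.21% of all genes were called lower and 6.89% higher. Slc4a4, the basolateral sodium bicarbonate cotransporter, fell from a mean of 25.2 to 9.20 FPKM (log2 -1.37, adjusted p = 0.00563). Slc4a5 was called lower too (-1.20, 0.0315), from 1.68, 1.05 and 2.27 FPKM in BRAF to 0.137 and 0.145. It met the filter only through the other groups, and its call rested on both labelled libraries. The call also ended without BRAF library 0 (0.0755) or 2 (0.0862), under quantile normalization (0.0921) and with a term for sex (0.0517). Among the sodium proton exchangers other than Slc9a3, no gene that met the filter in another group was called. Slc9a4, which encodes NHE4, known from the basolateral side of gastric gland cells, had 0.314, 0.0736 and 0.0883 FPKM in BRAF, 0.119, 0.176 and 0.0162 in SMAD4KO_BRAF, and 5.05 and 13.8 in the labelled libraries. Of the pumps, 1 of 3 was called, beside 14.1% of all genes, namely the sodium pump subunit gene Atp1b3 (0.57, 0.0296).

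Partners of chloride secretion split, with 3 risen and 3 fallen of 13 tested, where 6.89% of all genes were called higher and 7.21% lower. Kcnq1 and Kcne3, which encode a basolateral potassium channel and its accessory subunit, both rose by log2 1.52 (adjusted p = 0.00959 and 0.0198), as did Clca1 (2.35, 0.0225). Kcnk5, a further potassium channel gene, fell by 1.41 on the log2 scale (adjusted p = 0.0191). Clca4 (-3.22, 0.0176) and Clca6 (-4.80, 0.0238) fell as well, Clca6 with the filter limit given above. Cftr, the channel they serve or accompany, did not pass, as given above.

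Of 18 tested scaffolds and regulators, 8 fell and 1 rose, where 7.21% of all genes were called lower and 6.89% higher. Pdzk1 and Pdzd3, PDZ proteins that hold exchangers at the brush border, fell from means of 21.1 to 2.93 FPKM (log2 -2.46, adjusted p = 0.00444) and 19.3 to 2.62 (-2.50, 0.00324). Slc9a3r1, which encodes the NHE3 scaffold NHERF1, fell from a mean of 344 to 134 FPKM (-1.33, 0.0246). Guca2b, which encodes uroguanylin, fell from a mean of 618 to 61.6 FPKM (-3.37, 0.00428), and Guca2a, which encodes guanylin (-1.89, 0.0364), and the receptor gene Gucy2c (-1.17, 0.0144) fell as well. The receptor gene Vipr1 (-1.38, 0.0146) fell, and the kinase gene Stk39 rose (1.60, 0.00757). Adora2b, a further receptor gene counted among the 8, was called lower (-0.90, 0.0314) but met the filter only through the other groups. It had 0.872, 1.19 and 0.713 FPKM in BRAF and 0.0244 and 0.0329 in the labelled libraries. Its call ended without BRAF library 0 (adjusted p = 0.0684) or 2 (0.0582) and under a replicate block by column number (0.0968). The call rested on both labelled libraries as well. These falls lie beside that of the enterocyte list, and the part of enterocyte number in them was not tested.

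**Figure D4:**
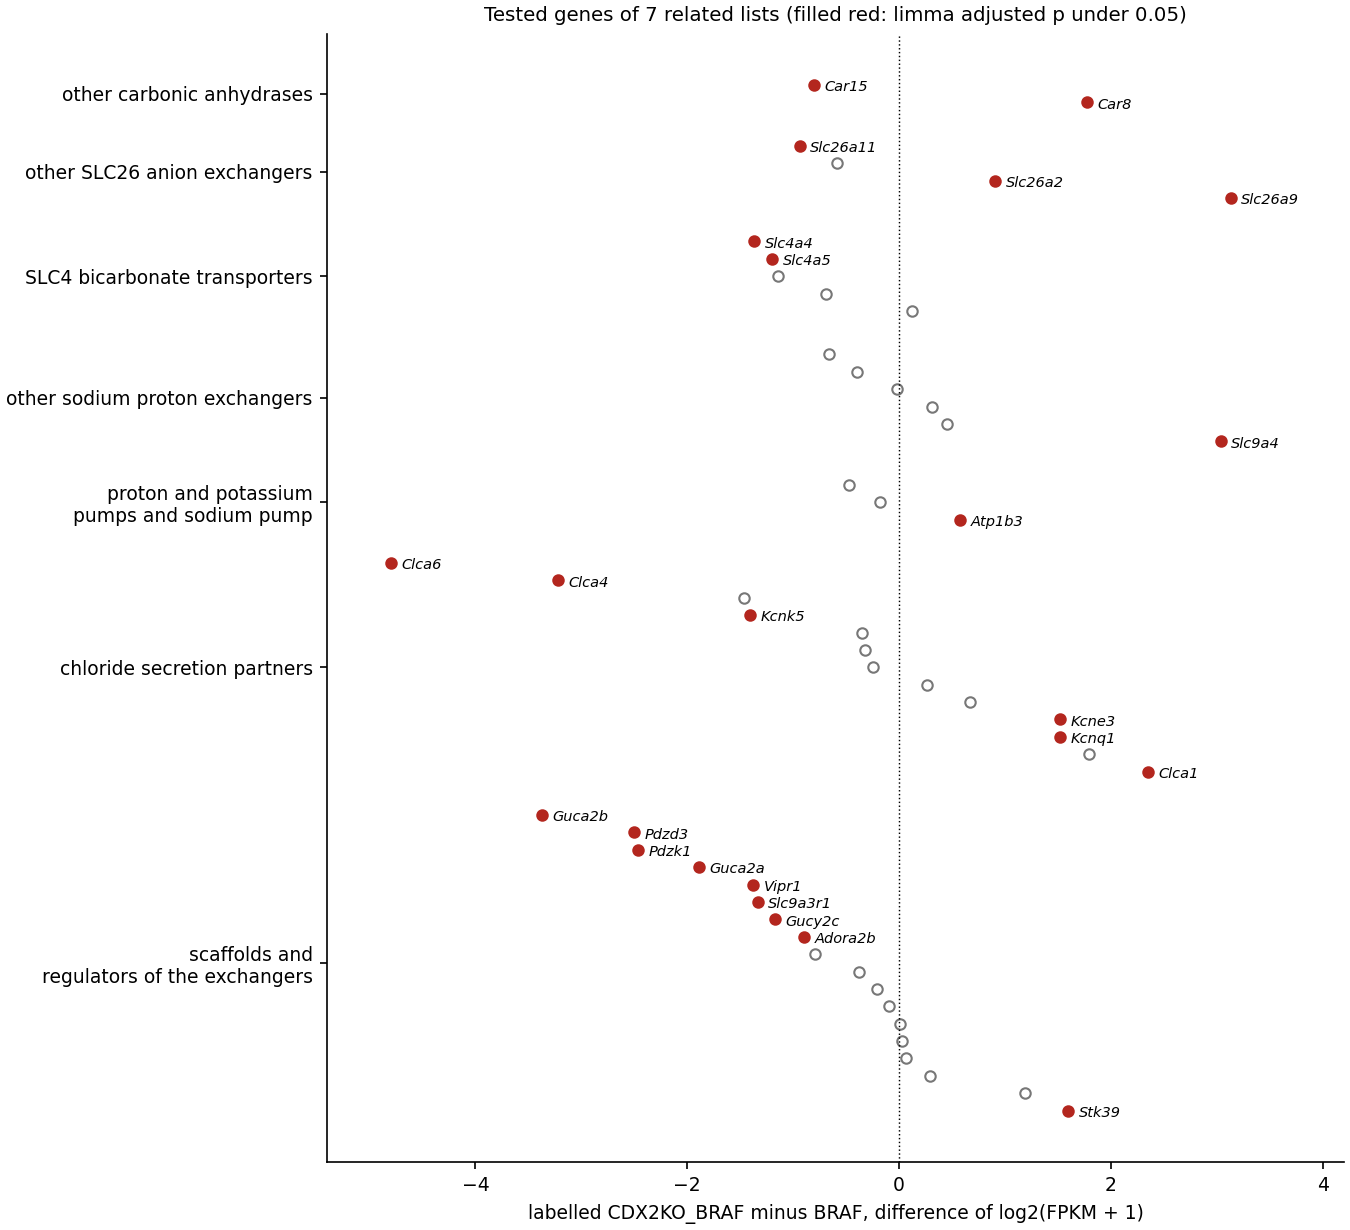
Difference of log2(FPKM + 1) between the libraries labelled CDX2KO_BRAF and BRAF for each of the 51 tested genes of 7 lists, with called genes filled and named. The scaffold and regulator list has 8 of its 9 filled points to the left of 0, while Slc26a9 and Slc9a4, which met the filter only through the labelled libraries, lie furthest to the right.

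Against SMAD4KO_BRAF, 7 of the 51 rose and 13 fell in the labelled libraries, beside 6.6% of all genes called higher and 5.01% called lower. Those 7 include Slc26a9 and Slc9a4, and the 13 include Car15, Slc4a5 and Adora2b, with the limits given above. Slc9a5, also among the 13, had 0.763 and 1.20 FPKM in the labelled libraries and met the filter only through the other groups. Car8 (1.41, 0.00187) rose here too. Guca2b (-3.29, 0.00599), Pdzd3 (-2.01, 0.00899) and Pdzk1 (-1.83, 0.0153) fell, as did Slc9a5 (-1.14, 0.0205) and the kinase gene Wnk4 (-1.54, 0.00685). Without labelled library 1 all 5 of these falls ended, with adjusted p of 0.0566, 0.0825, 0.111, 0.0873 and 0.0688 in that order, and that omission ended 16 of the 20 calls. Leaving out labelled library 0 ended 12 of the 20, those of Pdzk1 (0.0801) and Slc9a5 (0.142) among them. Without SMAD4KO_BRAF libraries 0, 1 and 2 the calls ended numbered 7, 2 and 6, with Slc9a5 at 0.0508 without library 0, and without BRAF libraries 0, 1 and 2 they numbered 1, 2 and 5. In SMAD4KO_BRAF against BRAF, the smallest adjusted p in the scaffold list was that of Slc9a3r1, with -1.16 ± 0.26 (0.179, 0.0369 with library weights and 0.0349 with a term for sex, under which 0.645% of all genes were called). Wnk4 followed with 0.74 (0.215), and the sodium pump subunit gene Atp1b1 gave -0.74 (0.277).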

How the data were processed

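Messenger RNA of jejunal crypts from 8 libraries was analysed from 1 table of FPKM, as the authors deposited it. The submitters' processing notes name TopHat2 2.1.0, Cuffdiff 2.2.1, Cuffnorm 2.2.1 and the build mm9, and assign no roles. Reads were single-end, 50 bp, per the labels. Columns were matched to groups by name, and 3 further columns that match no sample were not used. The members, lists, tests and alternatives were chosen with earlier results of these data known.

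The 12084 genes that reached 1 FPKM in 2 or more libraries were tested on log2(FPKM + 1) with limma 3.58.1 in R 4.3.3. The 3 groups shared 1 fit with a mean-variance trend, tests were two-sided, and Benjamini-Hochberg adjustment ran over all genes tested in each of 3 comparisons, with a threshold of 0.05. The fit was also run on simulated data that gave each gene the same spread in all groups, so that run cannot speak to uneven libraries. All 10 members are named with every value, and in each list and comparison the called genes and up to 2 with the smallest adjusted p qualify for naming. Some genes that qualify are not reported here. Groups do not overlap where every library of 1 group lies above every library of the other.

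The 9 alternatives were quantile normalization, rescaling by median ratios, a filter at 5 FPKM or none, a pseudocount of 0.1, a fit of the 2 groups alone, weights per library, a term for sex as Y-linked genes show it, and a replicate block, beside leaving out each library in turn. Leaving aside the block, the median difference of all genes stayed between -0.04 and 0.07 under each. Tables, motif searches and figures used Python 3.11.15, numpy 2.4.6, pandas 2.3.3 and matplotlib 3.10.9. Protein sequences were not used here.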

Additional observations from a re-analysis of the deposited data

How the results depend on the processing

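For the libraries labelled CDX2KO_BRAF against BRAF, 1704 genes and 4 members were called. Library weights called 2602 genes, and leaving out 1 library gave 409 to 1833 genes and 2 to 5 members. Against SMAD4KO_BRAF, 1402 genes and 3 members were called, with 2447 genes under library weights, 234 to 1423 genes and 0 to 3 members without 1 library. For SMAD4KO_BRAF against BRAF, 9 genes and 0 members were called. Library weights called 1069 genes and 2 members, no filter 5 genes, a term for sex 78 genes, and leaving out 1 library 5 to 25 genes and 0 members. Leaving out a labelled library leaves 1, which is then assumed to vary like the other groups. A replicate block by column number called 1181, 805 and 10 genes and 3, 2 and 0 members, in that order of comparisons. Whether the numbers pair the libraries is not in the labels. Same-numbered BRAF and SMAD4KO_BRAF libraries correlated in their deviations from the group means at 0.241, -0.0474 and 0.00346. BRAF library 0 correlated best with SMAD4KO_BRAF library 0, and BRAF library 1 with SMAD4KO_BRAF library 2 (0.312). In groups of 2 or 3 the deviations are tied to each other, so these values cannot decide the question. Under the block the adjusted p was 0.0635 for Car13 against BRAF and 0.0725 for Car4 against SMAD4KO_BRAF.

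Differences near 0 changed sign. Over the omissions of 1 library, Car12 differed between the labelled libraries and BRAF by -0.33 to 0.22, and Car13 between the labelled libraries and SMAD4KO_BRAF by -0.38 to 0.01, with the positive value without labelled library 1 in each. In SMAD4KO_BRAF against BRAF these ranges were -0.12 (without BRAF library 1) to 0.19 for Cftr, -0.13 to 0.08 (without BRAF library 0; 0.05 without SMAD4KO_BRAF library 1) for Car15, and -0.03 (without SMAD4KO_BRAF library 1) to 0.43 for Slc26a9. Library weights gave -0.09 for Cftr and 0.01 for Car15, and quantile normalization 0.03 for Car9. No cause of these changes was tested. With no counts in the table, what depth adds to the wide intervals of Car2 and Slc9a3 was not tested.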

Other observations

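Shares within the transporter families were computed after the values of Slc26a2, Slc26a9 and Slc9a4 had been seen. The 11 SLC26 genes summed to 344, 212 and 298 FPKM in BRAF, 236, 121 and 138 in SMAD4KO_BRAF, and 131 and 149 in the libraries labelled CDX2KO_BRAF. Slc26a6 and Slc26a3, the chloride bicarbonate exchangers, together led the family in BRAF, with 53.3%, 41.9% and 52.3% for Slc26a6 and 25.4%, 31.2% and 30.7% for Slc26a3. In the labelled libraries Slc26a2, the sulfate transporter, took 73.0% and 72.2%, against 12.9% to 23.9% in the other 6, and Slc26a9 took 4.85% and 9.41%, against at most 0.812%. In the same libraries Slc26a6 was down to 13.2% and 9.06% and Slc26a3 to 6.74% and 6.91%.

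Of the sodium proton exchangers, Slc9a4 had 0.326 and 1.72 times the FPKM of Slc9a3 in labelled libraries 0 and 1, and at most 0.0144 times in the other 6. The gene of the basolateral exchanger was thus above that of the apical one in labelled library 1 and below it in every other library.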
